A study of Mus musculus with 14 samples.

Results

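The 8 genes described here are Tppp, Tppp3, Ermn, Gsn, Mapt, Stmn1, Stmn4 and Larp6, taken by symbol from the 23427 genes of the expression table. They were chosen by their levels in the siSbp2l libraries, where Tppp and Larp6 were low and Ermn was not, so every siSbp2l difference of the 8 genes is given as a description without a test. All measurements are mRNA-seq of mouse primary OPC/OLs. OPCs are the dividing precursors of oligodendrocytes (OLs), the myelin-forming glia of the central nervous system. The cells came from pooled cortices of C57BL/6J pups at P7 and were captured on dishes coated with an antibody against PDGFRα. The study describes differentiation by withdrawing growth factors and adding T3, but its siRNA methods do not restate this step.

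There were 14 libraries in 7 groups of 2, and all were wild type, the knockdowns being made by siRNA. Day0 cells were taken before differentiation. The other 6 groups were taken at Day3, namely non-treated cells, mock-transfected cells, cells with NC siRNA #1, cells with NC siRNA #2, cells with an siRNA against Secisbp2l (siSbp2l) and cells with an siRNA against Pdgfra (siPdgfra). NC siRNA #1 and NC siRNA #2 are non-targeting siRNAs, and these 2 groups with mock and non-treated are the 4 Day3 controls. The study describes 2 independent replicates of cultured OPCs. With 2 libraries per group the p-values measure only the spread between such cultures, pooled over all groups in a fit. Each knockdown compared here is a whole culture at one time point, and a lower level in bulk RNA cannot tell fewer cells of a type from less RNA per cell.

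Microtubules are hollow polymers of α- and β-tubulin that fill the processes of OLs and carry mRNAs and membrane toward the myelin sheath. Tppp binds and bundles microtubules, tau (Mapt) stabilizes them, and stathmins bind free tubulin and favour disassembly. The actin network that drives process extension is severed by gelsolin (Gsn), while ermin (Ermn) is an actin-binding protein of late OLs. Larp6 belongs to the La-related RNA-binding proteins and is known for binding collagen mRNAs and vimentin filaments.

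The promoter windows of the 3 genes that name the set are shown because Tppp, Larp6 and Ermn took different courses over the groups. Each window runs from 250 bases before the RefSeq start of the gene to 50 bases after it on GRCm38.p6, 5′ to 3′ on the strand of the gene. For Tppp and Larp6 this start is that of the deposited annotation, but for Ermn it lies 112 bases further upstream, so that the Ermn window ends 63 bases before the start in the deposited annotation. Capitals mark motif matches on either strand. The motifs searched were the Tcf/Lef core TCAAAG, the Sox motifs spelled ACAATG and also spelled ACAAAG, the E-box, which reads CANNTG, the GC box, which reads GGGCGG, and the TATA box, which reads TATAAA. Entries were matched for 4 of the 8 genes, the fourth being Gsn.
Tppp, chr13:74009169-74009468, plus strand: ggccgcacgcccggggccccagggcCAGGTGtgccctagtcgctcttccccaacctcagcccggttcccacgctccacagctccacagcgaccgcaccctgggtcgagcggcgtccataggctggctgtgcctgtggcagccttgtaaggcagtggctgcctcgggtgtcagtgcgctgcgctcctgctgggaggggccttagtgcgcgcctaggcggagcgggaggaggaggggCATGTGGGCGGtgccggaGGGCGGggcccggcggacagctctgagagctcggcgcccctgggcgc
Larp6, chr9:60712871-60713170, plus strand: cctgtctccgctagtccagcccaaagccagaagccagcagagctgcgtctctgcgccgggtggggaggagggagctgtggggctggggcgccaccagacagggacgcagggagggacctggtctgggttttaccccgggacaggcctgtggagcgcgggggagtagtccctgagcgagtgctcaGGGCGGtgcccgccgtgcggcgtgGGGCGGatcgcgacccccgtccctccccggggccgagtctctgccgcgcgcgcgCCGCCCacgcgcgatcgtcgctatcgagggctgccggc
Ermn, chr2:58052815-58053114, minus strand: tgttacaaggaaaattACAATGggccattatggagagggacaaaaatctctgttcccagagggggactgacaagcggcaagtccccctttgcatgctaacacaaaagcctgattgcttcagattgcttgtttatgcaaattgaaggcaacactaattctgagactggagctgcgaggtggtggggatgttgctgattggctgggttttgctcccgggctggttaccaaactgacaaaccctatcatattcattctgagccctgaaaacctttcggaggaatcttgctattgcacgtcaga

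The Tppp and Larp6 windows were rich in G and C (73.3% and 73.7%), against 47.0% for Ermn and a median of 52.7% over 32851 promoter windows. The GC box was found at positions -66, -42 and 13 of Larp6 and at -10 and 4 of Tppp, counted from the RefSeq start of the gene to the first base of the match. An E-box stood at -225 and at -15 of Tppp, the latter overlapping a GC box. The Ermn window held 1 of these motifs, an ACAATG at -234. No TCAAAG was found in the 3 windows, nor was TATAAA. Over all windows, 35.7% held the GC box, 72.3% an E-box, 12.6% ACAATG, 18.7% ACAAAG, 16% TCAAAG and 13.6% TATAAA.

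The study also measured Tppp by RT-qPCR, and reported less of it with knockdown of Secisbp2l but not of the paralog Secisbp2. The oligonucleotides of that assay are shown because they fix which stretch of the transcript it reads. On GRCm38 (GENCODE vM21) they matched the coding part of the Tppp mRNA and bounded a product of 108 bases. The forward primer spanned the junction of exon 2 and exon 3, from 74021439 to 74030761 on chromosome 13. The probe lay in exon 3 at 74030763 to 74030792, and the reverse primer at 74030826 to 74030845 in the same exon.
Tppp forward primer: cagcaagatcaaaggaaagtcctg
Tppp probe: aggaccatcacctttgagcagttccaggag
Tppp reverse primer: gcctcctcgctgctcttatc

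The values are FPKM, that is fragments scaled to exon length and to the mapped fragments per library, so levels can be compared between genes. Estimated depth was lowest, at 6558187 fragments, in NC siRNA #2 replicate 2 and highest, at 31622633 fragments, in Day0 replicate 1. The siRNA targets followed the labels, with Secisbp2l at 3.82 to 3.91 FPKM in siSbp2l against 135 to 255 FPKM in the 4 controls and Pdgfra at 2.69 to 3.30 FPKM in siPdgfra against 32.4 to 72.1 FPKM. Of the OPC and OL defining markers, 10 of 10 had a mean at or above 1 FPKM in every Day3 control group, although Cspg4, a proteoglycan gene of OPCs, was 0.958 FPKM in 1 NC siRNA #1 library. The non-treated libraries stood apart. Their log2 differences had an SD of 0.457 over 11874 genes, against 0.148 to 0.20 in the other groups. These differences followed the GC content of the transcript across genes (Spearman rho -0.81, 10750 genes, 90.5% of those tested). Replicates of Day0 (rho -0.52) and NC siRNA #1 (rho 0.47) followed it less strongly, and rho was -0.19 to 0.05 in the remaining groups. Results that rest on the non-treated group are therefore given also with mock cells in its place or without it. That leaves the trends in Day0 and NC siRNA #1 in place. In transcript GC the members ran from percentile 1.49 (Ermn) to 87.1 (Larp6), and the part of GC in their differences was not tested.

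**Figure D1:**
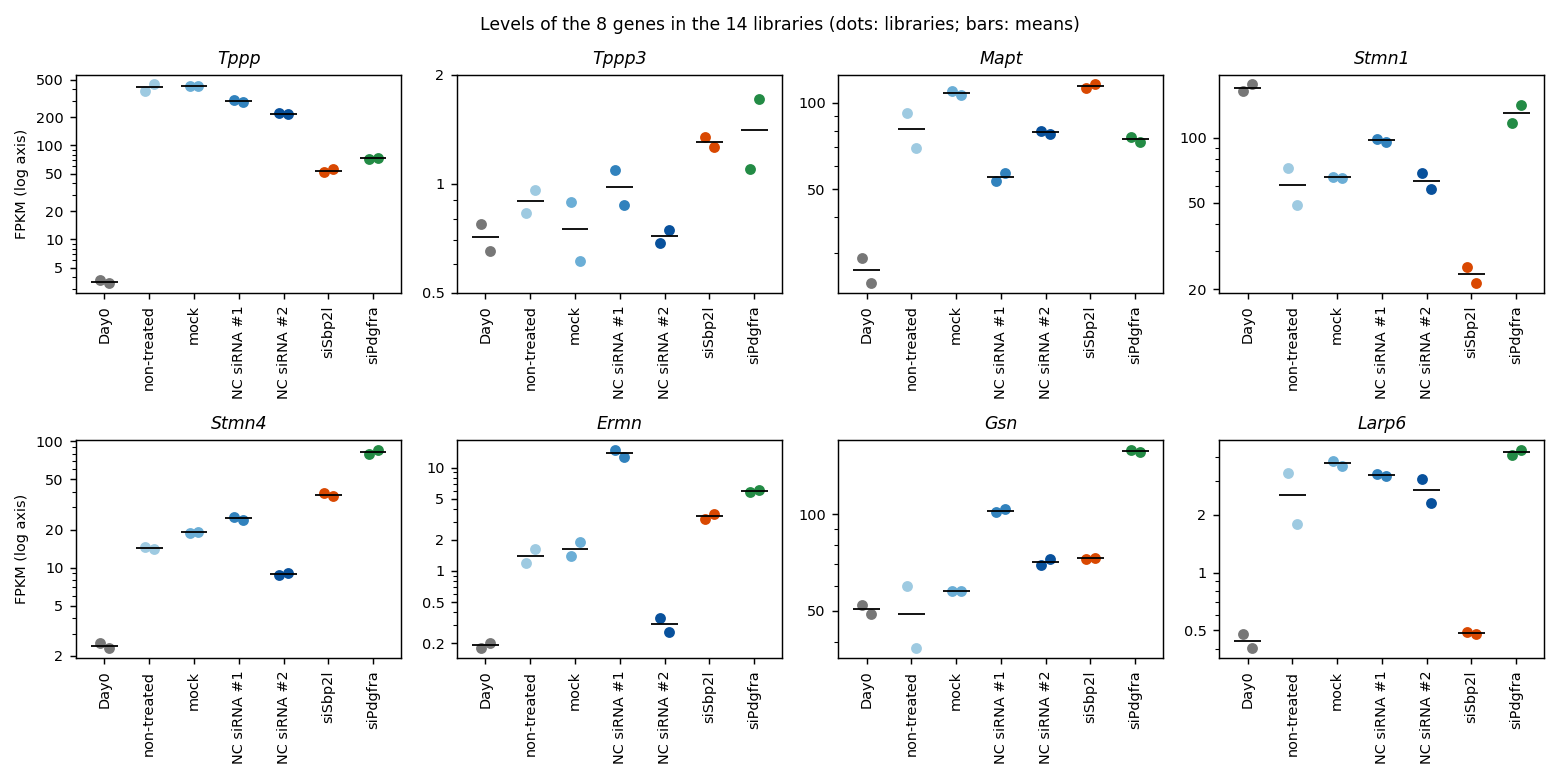
FPKM of the 8 genes (log axis, a separate range in each panel) in the 7 groups on the horizontal axis, with a dot for each library and a bar for the mean of 2. Tppp and Larp6 are low at Day0 and in siSbp2l, while Ermn is highest in NC siRNA #1 and under 1 FPKM in NC siRNA #2.

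Among the microtubule proteins, Tppp was the most abundant of the 8 genes in the Day3 controls. Tppp lies on chromosome 13 at 74009419 to 74035753 on the plus strand of mm10, with 5090 bases of exon. Its level was 3.67 and 3.46 FPKM at Day0, 383 and 446 FPKM in non-treated cells, and 426 and 430.5 FPKM in mock cells. It was 303 and 293 FPKM with NC siRNA #1, and 219.7 and 215 FPKM with NC siRNA #2. With siSbp2l it was 52.5 and 55.6 FPKM, and with siPdgfra 71.6 and 74.0 FPKM. The group order from the lowest was thus Day0, siSbp2l, siPdgfra, NC siRNA #2, NC siRNA #1, non-treated and mock, and only non-treated and mock overlapped.

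Tppp3, the shorter paralog of Tppp, lies on chromosome 8 at 105467492 to 105471422 on the minus strand with 1024 bases of exon. It stayed near 1 FPKM in every library, from 0.610 FPKM (mock replicate 2) to 1.71 FPKM (siPdgfra replicate 2). That was an estimated 5 to 35 fragments per library, and neighbouring groups overlapped except NC siRNA #1 and siSbp2l. It reached 1 FPKM in 5 of 14 libraries, those of siSbp2l, siPdgfra and 1 of NC siRNA #1, and so passed the filter on low values through these groups.

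Mapt encodes tau and lies on chromosome 11 at 104231436 to 104332093 on the plus strand, with 5384 bases of exon in 2 transcripts. It was 28.7 and 23.6 FPKM at Day0, 92.2 and 69.6 FPKM in non-treated cells, and 110 and 107 FPKM in mock cells. With NC siRNA #1 it was 53.3 and 57.0 FPKM, and with NC siRNA #2 79.9 and 77.7 FPKM. With siSbp2l it was 113 and 116 FPKM, and with siPdgfra 76.0 and 73.1 FPKM. Tau mRNA was lowest at Day0 and highest in siSbp2l, where both libraries lay above every other library.

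Stmn1 encodes stathmin, a tubulin-sequestering protein of dividing and immature cells, and lies on chromosome 4 at 134468320 to 134473843 on the plus strand (exon length 1060 bases). It was 163 and 176 FPKM at Day0, 72.1 and 48.6 FPKM in non-treated cells, and 65.6 and 65.3 FPKM in mock cells. NC siRNA #1 gave 98.6 and 95.3 FPKM, and NC siRNA #2 68.3 and 58.1 FPKM. It was 25.4 and 21.4 FPKM with siSbp2l, and 117 and 142 FPKM with siPdgfra. Day0 was thus the highest group and siSbp2l the lowest, with no overlap between siSbp2l and any other group.

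Stmn4 is a neural stathmin on chromosome 14 at 66344375 to 66361680, plus strand, with 1232 bases of exon. It was 2.52 and 2.31 FPKM at Day0, 14.7 and 14.2 FPKM in non-treated cells, and 19.0 and 19.2 FPKM in mock cells. It was 25.2 and 24.1 FPKM with NC siRNA #1, and 8.69 and 9.15 FPKM with NC siRNA #2. With siSbp2l it was 39.2 and 36.8 FPKM, and with siPdgfra 80.2 and 86.0 FPKM. No groups overlapped, and the knockdown groups were the highest, so the 2 stathmins took opposite positions in siSbp2l.

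Among the actin-binding proteins, Ermn varied most between the controls. It lies on chromosome 2 at 58045115 to 58052752 on the minus strand, with 3521 bases of exon. It was 0.180 and 0.202 FPKM at Day0, 1.19 and 1.62 FPKM in non-treated cells, and 1.39 and 1.90 FPKM in mock cells. With NC siRNA #1 it was 14.9 and 12.7 FPKM, but with NC siRNA #2 0.353 and 0.260 FPKM. The controls therefore spanned 45 times between their lowest and highest group mean. With siSbp2l it was 3.21 and 3.55 FPKM, and with siPdgfra 5.87 and 6.05 FPKM, both between NC siRNA #1 and the other controls. Ermn was under 1 FPKM in Day0 and NC siRNA #2, where 6 to 23 fragments were estimated per library, and passed the filter through the other groups.

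Gsn encodes gelsolin, which severs and caps actin filaments, and lies on chromosome 2 at 35256359 to 35307902 on the plus strand, with 2938 bases of exon in 4 transcripts. It was 52.3 and 48.8 FPKM at Day0, 59.7 and 38.3 FPKM in non-treated cells, and 57.5 and 57.8 FPKM in mock cells. NC siRNA #1 gave 102 and 104 FPKM, and NC siRNA #2 69.5 and 72.3 FPKM. It was 72.8 and 73.1 FPKM with siSbp2l, and 159 and 156 FPKM with siPdgfra. Gelsolin mRNA was highest in siPdgfra and lowest in Day0 and non-treated cells, which overlapped.

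Larp6 lies on chromosome 9 at 60713121 to 60738801 on the plus strand, with 2308 bases of exon. It was 0.480 and 0.404 FPKM at Day0, 3.30 and 1.79 FPKM in non-treated cells, and 3.83 and 3.60 FPKM in mock cells. NC siRNA #1 gave 3.27 and 3.21 FPKM, and NC siRNA #2 3.07 and 2.31 FPKM. It was 0.492 and 0.479 FPKM with siSbp2l, and 4.13 and 4.38 FPKM with siPdgfra. The siSbp2l libraries overlapped with those of Day0, and no Day3 library of another group came below 1.79 FPKM. Larp6 mRNA was scarce throughout. It amounted to an estimated 23 and 24 fragments in the siSbp2l libraries and 21 and 35 at Day0, above a floor of 3 fragments (0.0599 to 0.0641 FPKM in siSbp2l). That floor allows for counting error alone, since copies made by PCR count more than once.

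Differentiation itself was compared as Day3 non-treated against Day0, a contrast that holds no siSbp2l library, although these enter the fit and its error. The non-treated cells are also a control of siSbp2l, so their levels had a part in the choice of members. Tppp rose most of the 8 genes, and Stmn4, Mapt, Larp6 and Ermn rose with it, whereas Stmn1 fell. Here and below, called genes changed at least 2-fold with an adjusted p under 0.05 in limma with Benjamini-Hochberg adjustment over all genes tested. By that rule 6 of the 8 genes were called, 5 higher and 1 lower, where 26.6% of 11874 genes were called, 11.4% higher and 15.2% lower. The excess of lower calls over all genes depended on the scaling, with 1355 higher and 1802 lower on the deposited values, 1530 and 1562 after median-ratio scaling and 1580 and 1497 after upper-quartile scaling. Mock against Day0 called the same 6 members in the same directions, where 26.2% of 11874 genes were called. In the fit of the compared groups alone 6 members were called as well, though Tppp3 did not pass its filter. Members had a median difference of 1.14 in log2(FPKM + 1), against -0.12 over all genes, and upper-quartile scaling moved the latter to 0.001.

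Tppp rose by 6.50 ± 0.09 (SE, adjusted p = 3.32e-12), which on the means of the deposited values was 116 times its Day0 level. The log2(FPKM + 1) scale understates the change of low genes, as for Larp6 and Ermn. Stmn4 rose by 2.18 ± 0.08 (adjusted p = 1.63e-09) and Mapt by 1.58 ± 0.13 (adjusted p = 8.92e-07). Larp6, the RNA-binding member, rose by 1.26 ± 0.17 (adjusted p = 5.47e-05). It was under 1 FPKM in both Day0 and both siSbp2l libraries and passed the filter on low values through the other groups. Without non-treated replicate 1 its difference was 0.95, under the 2-fold threshold. Ermn rose by 1.01 ± 0.13 (adjusted p = 3.08e-05), and this call was lost without Day0 replicate 1 (0.995) or without non-treated replicate 2 (0.88). Stmn1 fell by 1.50 on the log2 scale (SE 0.17, adjusted p = 1.3e-05). With mock in place of non-treated the differences were 6.56 for Tppp, 2.56 for Stmn4, 2.01 for Mapt, 1.71 for Larp6, 1.15 for Ermn and -1.36 for Stmn1 (limma, adjusted p from 3.05e-12 to 2.94e-05). Tppp3 (0.15 ± 0.13, adjusted p = 0.336) and Gsn (-0.08 ± 0.16, adjusted p = 0.679) did not pass the test, nor did they with mock (0.03 and 0.19, adjusted p = 0.855 and 0.308). Markers of other cells changed as well. Of 9 neuron markers, 6 were tested and 3 called lower, and their summed level was 38.6 to 40.7 FPKM at Day0 and 12.1 to 13.8 FPKM in non-treated cells. Of 7 astrocyte markers, 5 were tested and 3 called higher, and their summed level was 42.3 to 46.5 FPKM at Day0 and 105 to 134 FPKM in non-treated cells, with Gfap the largest change (4.76). The vesicular transporter gene Slc17a6 (neuron) was listed at 0 in all 14 libraries, and the gap junction gene Gja1 (astrocyte) was at most 0.0523 FPKM. Their part in the member differences was not tested. The study names different sequencers for its differentiation and knockdown series, and where Day0 and Day3 libraries came from different runs, day and run cannot be told apart.

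**Figure D2:**
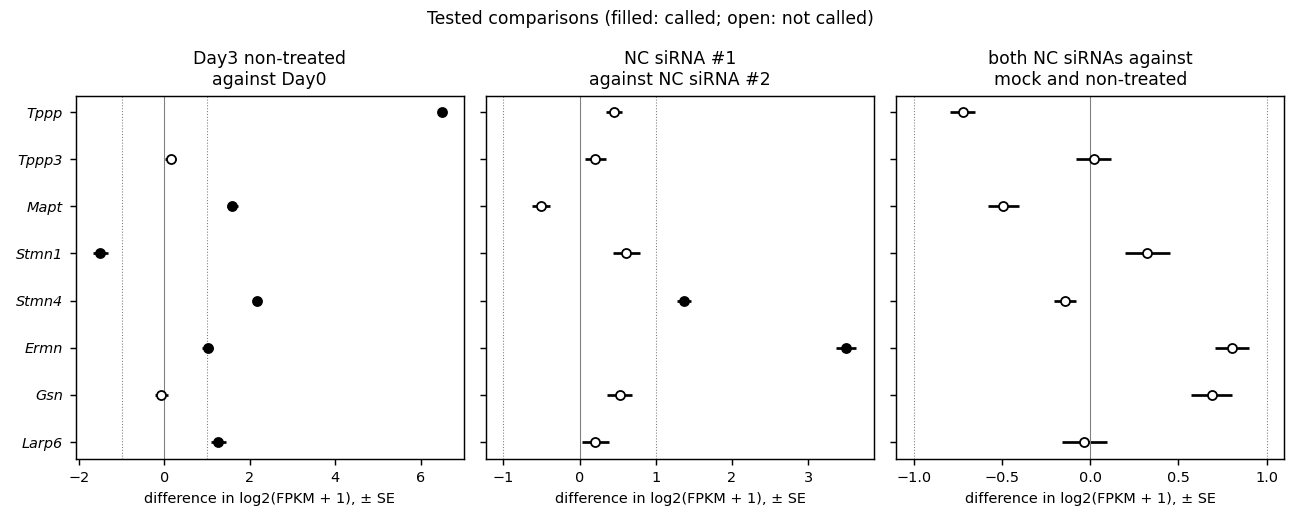
Differences in log2(FPKM + 1) with SE for the 8 genes in 3 tested comparisons (dotted lines at a 2-fold difference). Filled points were called and open points were not: Tppp stands at 6.50 in the Day3 panel, and Ermn at 3.50 is the largest difference between the 2 non-targeting siRNAs.

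How far the members differ between cultures that received non-targeting siRNAs was asked by setting NC siRNA #1 against NC siRNA #2. Ermn and Stmn4 were higher with NC siRNA #1, and Tppp was higher by less than 2-fold. Of the 8 genes, 2 were called, where 3.99% of 11650 genes were called (2.36% higher and 1.63% lower). Ermn differed by 3.50 ± 0.14 (adjusted p = 2.93e-07) and Stmn4 by 1.37 ± 0.09 (adjusted p = 5.5e-06), with no overlap between the groups. Tppp (0.45 ± 0.10, adjusted p = 0.01), Stmn1 (0.61 ± 0.18, adjusted p = 0.034), Gsn (0.53 ± 0.16, adjusted p = 0.0444) and Mapt (-0.51 ± 0.12, adjusted p = 0.0156) passed the adjusted p but not the fold. Larp6 (0.21 ± 0.18, adjusted p = 0.484) and Tppp3 (0.21 ± 0.14, adjusted p = 0.347) did not pass the test. Of the 10 OPC and OL defining markers, 3 were called higher with NC siRNA #1, namely Mog (3.40), which encodes a myelin surface glycoprotein, Mag (1.66) and Mbp (1.18). P2ry12, a microglial purine receptor, was higher too (1.21), and the 7 microglia markers summed to 8.80 to 9.46 FPKM with NC siRNA #1 and 2.94 to 3.85 FPKM with NC siRNA #2, while 6 of the 7 microglia markers were under 1 FPKM in every group and Aif1 was listed at 0 outside siSbp2l. The part of these genes in the Ermn difference was not tested.

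Setting both NC siRNAs against mock and non-treated asked how far the members move with any siRNA. None of the 8 genes was called by limma, where 1.28% of 11650 genes were called (0.472% higher and 0.807% lower), and 6 of the 8 had an unadjusted p under 0.05, as had 40.3% of all genes. At the adjusted p alone, Tppp was lower with the siRNAs (-0.72 ± 0.07, adjusted p = 8.13e-05) and so was Mapt (-0.49 ± 0.09, adjusted p = 0.00249). Ermn (0.80 ± 0.10, adjusted p = 0.000254) and Gsn (0.69 ± 0.12, adjusted p = 0.0018) were higher by the same criterion. Ermn, however, was above mock and non-treated only with NC siRNA #1, since both NC siRNA #2 libraries lay below them. Stmn1, Stmn4, Larp6 and Tppp3 did not pass the test (adjusted p from 0.0811 to 0.906). Without the non-treated group none of the 8 was called by limma (1.34% of 11605 genes were), but Stmn4 (-0.34 ± 0.06, adjusted p = 0.000902) and Larp6 (-0.26 ± 0.09, adjusted p = 0.0475) then passed the adjusted p. Tppp was -0.75, Mapt -0.71, Ermn 0.74 and Gsn 0.56 in that fit, and each still passed the adjusted p (2.74e-06 to 0.000263).

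siPdgfra lowers the receptor that keeps OPCs proliferating, and it was compared with the mean of the 4 Day3 controls. The siSbp2l libraries enter the error and the filter of this fit but not the differences, and without them the same members were called. The controls, however, are those of the siSbp2l contrast on which the members were chosen, so the test is not independent of that choice. Tppp was lower in siPdgfra, and Stmn4, Gsn and Ermn were higher. By the same thresholds 4 of the 8 genes were called, 3 higher and 1 lower, where 7.99% of 11650 genes were called (3.97% higher and 4.03% lower). The median was 0.64 over the members and 0.09 over all genes.

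Tppp fell by 2.15 on the log2 scale (SE 0.08, adjusted p = 7.48e-08), to a mean 78.6% below that of the controls. Taking 1 control at a time, the share of all genes called was 11.0% for non-treated, 9.43% for mock, 9.74% for NC siRNA #1 and 10.2% for NC siRNA #2. Tppp was called against each of the 4 controls, with differences from -2.54 (mock) to -1.57 (NC siRNA #2). Stmn4 rose by 2.33 ± 0.07 (adjusted p = 2.45e-08), and was likewise called against every control, from 1.71 (NC siRNA #1) to 3.08 (NC siRNA #2). Gsn rose by 1.22 ± 0.13 (adjusted p = 3.5e-05), though against NC siRNA #1 alone the difference was 0.61 (adjusted p = 0.0119), under 2-fold. The Ermn call depended on the control. It was 1.07 ± 0.11 higher against the mean of the 4 (adjusted p = 2.49e-05), 2.41 higher against NC siRNA #2 (adjusted p = 1.12e-06), and 1.08 lower than NC siRNA #1 on the log2 scale (-1.08, adjusted p = 0.000162). Without the non-treated group it was 0.91, under the fold threshold, while Tppp (-2.04), Stmn4 (2.29) and Gsn (1.06) were called there, where 7.76% of 11605 genes were. Stmn1 was 0.88 ± 0.14 higher (adjusted p = 0.00053), just short of 2-fold, and reached 2-fold without siPdgfra replicate 1 (1.01). Larp6 was higher by less than 2-fold (0.40 ± 0.14, adjusted p = 0.0383), with an adjusted p of 0.0561 by limma when the siSbp2l libraries were left out. Mapt (-0.07 ± 0.10, adjusted p = 0.553) did not pass the test. Tppp3 was 0.38 ± 0.11 higher. That value is a description only, since Tppp3 passed the filter mostly through the knockdown groups, where it was highest. Astrocyte markers summed to 37.9 to 38.3 FPKM in siPdgfra and 83.7 to 146 FPKM in the controls, with 4 of 5 tested called lower. Neuron markers summed to 21.1 to 22.9 FPKM in siPdgfra and 12.1 to 21.0 FPKM in the controls, with 1 of 5 tested called, the vesicle protein gene Syt1 (1.64). P2ry12 was the 1 microglia marker tested and was called higher (1.08), though not without the non-treated group (0.81), and the 7 microglia markers summed to 6.60 to 7.61 FPKM in siPdgfra and 0.768 to 9.46 FPKM in the controls. Of the 10 OPC and OL defining markers 2 were called lower, Pdgfra itself and Mag (-2.38, at 59.2 to 59.6 FPKM against 135 to 528 FPKM in the controls), and they summed to 4940 to 5694 FPKM against 5409 to 9398 FPKM. Whether these moved the members was not tested.

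The siSbp2l libraries chose the members, so their differences are set out without tests. The fold and p thresholds together called 7.19% of 11650 genes in this contrast (3.12% higher and 4.08% lower). The split was 363 higher and 475 lower on the deposited values, and 216 higher and 622 lower after median-ratio scaling, which moved the median of all genes from 0.15 to about 0. The OPC and OL defining markers summed to 2532 to 2729 FPKM in siSbp2l and 5409 to 9398 FPKM in the controls. These 10 markers moved both ways, with 1 called higher and 4 lower, and differences from -2.80 to 1.54. Pdgfra, an OPC gene, was the 1 called higher, at 144 to 150 FPKM in siSbp2l and 32.4 to 72.1 FPKM in the controls. By sign alone, 3 of the 10 markers were higher and 7 lower, so Pdgfra does not stand for the list. The astrocyte markers summed to 102 to 109 FPKM in siSbp2l and 83.7 to 146 FPKM in the controls, with 0 of 5 tested called. For the neuron markers the sums were 17.1 to 17.2 FPKM and 12.1 to 21.0 FPKM, with 1 of 5 tested called higher and 0 lower. The part of these markers in the member differences was not tested. By fold alone, 1 of the 8 genes lay at least 2-fold above the mean of the 4 controls and 3 at least 2-fold below. This rule is looser than that of the shares above, and the share of all genes by fold alone was not counted.

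Tppp was -2.58 ± 0.08 on the log2 scale against the mean of the 4 controls, and 84.1% below their mean in FPKM. Its differences ran from -2.96 (mock) to -1.99 (NC siRNA #2). Larp6 was -1.43 ± 0.14 against the mean of the 4 controls and also 84.1% below them in FPKM, with differences from -1.67 (mock) to -1.22 (non-treated). Stmn1 was -1.54 ± 0.14, from -2.01 (NC siRNA #1) to -1.31 (non-treated). With a pseudocount of 1 these 3 genes lay at least 2-fold below every control, but with a pseudocount of 5 the difference of Larp6 from the mean of the 4 was -0.55. How large a share of all genes lay at least 2-fold below every control was not counted. Without the non-treated group Tppp was -2.46, Larp6 -1.50 and Stmn1 -1.62. Stmn4 was the member above 2-fold higher (1.22 ± 0.07), but only 0.61 above NC siRNA #1 and 0.95 above mock. Mapt was 0.54 ± 0.10 higher and Tppp3 0.33 ± 0.11 higher, Gsn differed by 0.12 ± 0.13, and no member among these was 2-fold off the mean of the 4.

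Ermn had no single direction in siSbp2l. On the log2 scale it was 0.40 ± 0.11 above the mean of the 4 controls, whereas the mean of the FPKM was 21.2% below that of the controls, which NC siRNA #1 raised. It was -1.75 against NC siRNA #1, 1.74 against NC siRNA #2, 0.73 against mock and 0.87 against non-treated. The statement that Ermn was not low in siSbp2l thus held against 3 of the 4 controls.

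**Figure D3:**
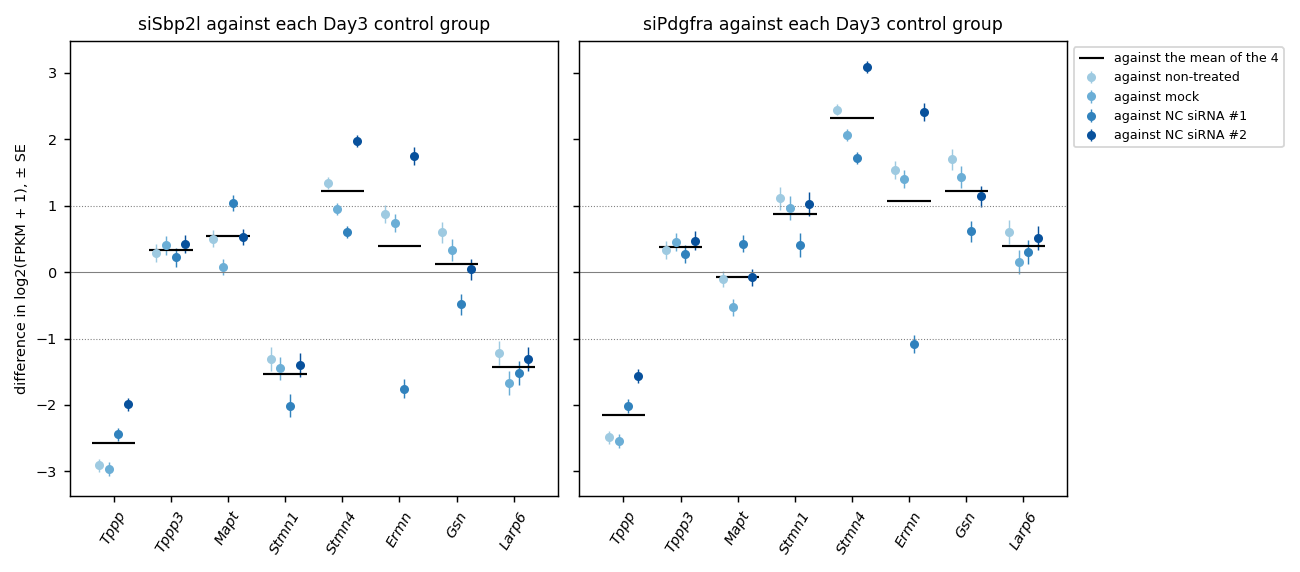
Differences in log2(FPKM + 1) of siSbp2l (left, a description) and siPdgfra (right) from each Day3 control group, with SE, and black bars for the mean of the 4 controls. Tppp lies under -1 against every control in both panels, Larp6 and Stmn1 do so only for siSbp2l, and Ermn changes sign with NC siRNA #1.

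The knockdowns share their 4 control groups, so their values are given side by side and no likeness between them was tested. Tppp stood at 54.1 ± 2.2 FPKM (SD, n = 2) in siSbp2l and 72.8 ± 1.7 FPKM in siPdgfra, and the groups did not overlap. Larp6 stood at 0.485 ± 0.009 FPKM in siSbp2l and 4.25 ± 0.18 FPKM in siPdgfra. For Stmn1 the means were 23.4 ± 2.8 FPKM and 129 ± 17 FPKM. Larp6 and Stmn1 thus lay below every control library in siSbp2l and above every control library in siPdgfra, whereas Tppp lay below them in both. The share of all genes that separate in this way was not counted, here or in the other comparisons of members. Differences were common, with an unadjusted limma p under 0.05 for 59.0% of 11650 genes in siSbp2l and 60.8% in siPdgfra.

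Against Day0 cells, siSbp2l cells held more Tppp but less than any control, and as little Larp6 as Day0. Mapt and Stmn4 lay above Day0 and every control group in siSbp2l, and Stmn1 below all of them. Among all genes 22.8% of 11874 were called in this contrast (12.1% higher and 10.7% lower), a balance that turned from 1433 higher and 1275 lower to 1218 and 1452 after median-ratio scaling. Tppp was 3.59 ± 0.09 above Day0, or 15.2 times its mean, against 116 times in non-treated cells. Larp6 differed from Day0 by 0.04 ± 0.17 and overlapped with it. Stmn4 (3.51 ± 0.08), Mapt (2.09 ± 0.13) and Ermn (1.88 ± 0.13) were further above Day0 than the 2-fold line, and Stmn1 was below it (-2.81 ± 0.17).

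The partners of these proteins were followed in 8 lists of genes, whose calls are to be read against the 26.6% of all genes called at Day3, the 7.99% in siPdgfra and the 7.19% in siSbp2l. The lists were chosen with earlier results of these data known, and their shares were not tested against those of all genes. The genes named below as called at Day3 were called with mock too, apart from Qk, and the list calls that changed without the non-treated group in the knockdowns were those of Ezr and Fkbp3. Of 14 subunits 12 were tested, with 2 called higher and 7 lower at Day3, and a median of -1.38. That was 75% of those tested, and with mock there were again 2 higher and 7 lower (median -1.03). Tubb4a, the β-tubulin of myelinating OLs, rose by 4.19 from 101 to 107 FPKM at Day0 to 1496 to 2415 FPKM, while Tubb6 fell by 3.60 and Tuba1b fell by 2.57 on the log2 scale. In siPdgfra, 2 were called higher and 0 lower, namely Tubb2b (1.24) and Tubb2a (1.11), or 16.7%. In siSbp2l, 0 were called higher and 1 lower, or 8.33%, that of Tubb4a (-1.27, at 846 to 851 FPKM). Reads of near-identical tubulin genes may be split between them, so single isotypes are uncertain.

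Of 24 genes for microtubule binding and plus-end proteins, 22 were tested, and 7 were called higher and 4 lower at Day3, or 50% (7 and 3 with mock). Tpx2, a spindle assembly factor, fell by 3.67 on the log2 scale, while Map1b (3.07) and Map7 (2.83), which binds microtubules and recruits kinesin, rose. With siPdgfra 0 were called higher and 1 lower, Map1b (-1.40), or 4.55%. With siSbp2l 1 was called higher and 3 lower, or 18.2%, and Tpx2 was not called. The lower ones were Map7 (-2.13), Map1b (-1.68) and the stathmin gene Stmn3 (-1.01). The higher one was Dcx (2.05), which encodes doublecortin, a microtubule-binding protein of immature neurons, at 22.3 to 23.8 FPKM against 3.06 to 6.98 FPKM in the controls. Map7 was 1.43 and 1.67 FPKM in siSbp2l, outside the 7.32 to 19.0 FPKM of the controls. It was 1.15 higher with NC siRNA #1 than with NC siRNA #2.

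The 15 tau kinases and tubulin-modifying enzymes were all tested, with 4 called higher and 2 lower at Day3, or 40%, and the same counts with mock. Sirt2, a tubulin deacetylase abundant in OLs, rose by 5.39, and Fyn, a kinase that binds tau, by 1.71, whereas Mark1, a tau kinase, fell by 1.47 on the log2 scale. In siPdgfra 2 were called higher, Cdk5r1 (1.24) and Mark1 (1.08), and 0 lower, or 13.3%. In siSbp2l 0 were called higher and 1 lower, or 6.67%, that of Sirt2 (-2.51), which was 420 to 438 FPKM against 2107 to 3114 FPKM in the controls.

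Of 42 genes of actin and its turnover, 41 were tested, with 6 called higher and 4 lower at Day3 (24.4%, but 5 and 2 with mock), 2 higher and 2 lower in siPdgfra (9.76%), and 2 higher and 1 lower in siSbp2l (7.32%). The formin gene Fmnl2 rose at Day3 (3.11), Tmsb10, a G-actin-sequestering thymosin, rose in siPdgfra (2.29) and Cfl2, a cofilin, fell by 1.79 on the log2 scale there. In siSbp2l Arpc1b, a subunit gene of the Arp2/3 complex that nucleates branched actin, was lower (-2.70), at 57.8 to 58.6 FPKM against 256 to 444 FPKM in the controls. Of 11 genes of the gelsolin and ERM families, 8 were tested. Ezr (2.01) and Slc9a3r1 (1.06), which encode ezrin and its scaffold partner, were called higher at Day3 and 0 lower, or 25%, and Svil, a gelsolin-family gene, was a further call with mock (1.03). Svil was the 1 called in siPdgfra (1.36, 12.5%), and Ezr the 1 called in siSbp2l (1.01), though not without the non-treated group (0.76).

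Of 6 La-related genes 0 were called higher and 2 lower at Day3, Larp7 (-1.89) and Larp1 (-1.46), or 33.3%, with Ssb, the La gene, a further one with mock (-1.07), and 0 were called in either knockdown. Of 7 genes for mRNA targets and partners of Larp6, 4 were tested, and 3 were called lower at Day3 with 0 higher, with mock too. These were Vim (-2.13), which encodes vimentin, Myh10 (-1.95), a non-muscle myosin, and Fkbp3 (-1.46), a prolyl isomerase. In siPdgfra none of the 4 was called by limma. In siSbp2l 2 were called higher, Vim (1.42) and Myh10 (1.03), and 1 lower, Fkbp3 (-1.08), which fell just short of 2-fold without the non-treated group (-0.997). The collagen gene Col1a1, whose mRNA Larp6 is known to bind, was at most 0.130 FPKM in all 14 libraries. Of 10 genes for the transport of myelin mRNAs, all were tested. Qk (1.15), an RNA-binding protein gene, was the 1 called higher at Day3, or 10%. It rested on 1 non-treated library, at 501 and 973 FPKM in that group, 536 and 542 FPKM in mock and 311 and 318 FPKM at Day0, and with mock the difference was 0.78, under 2-fold. With mock the 1 call was Hnrnpa2b1 (-1.03), a gene for a protein that binds myelin mRNA. In the knockdowns the kinesin genes Kif5c (1.17) and Kif5b (-1.24) were called in siPdgfra, and 0 were called in siSbp2l.

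**Figure D4:**
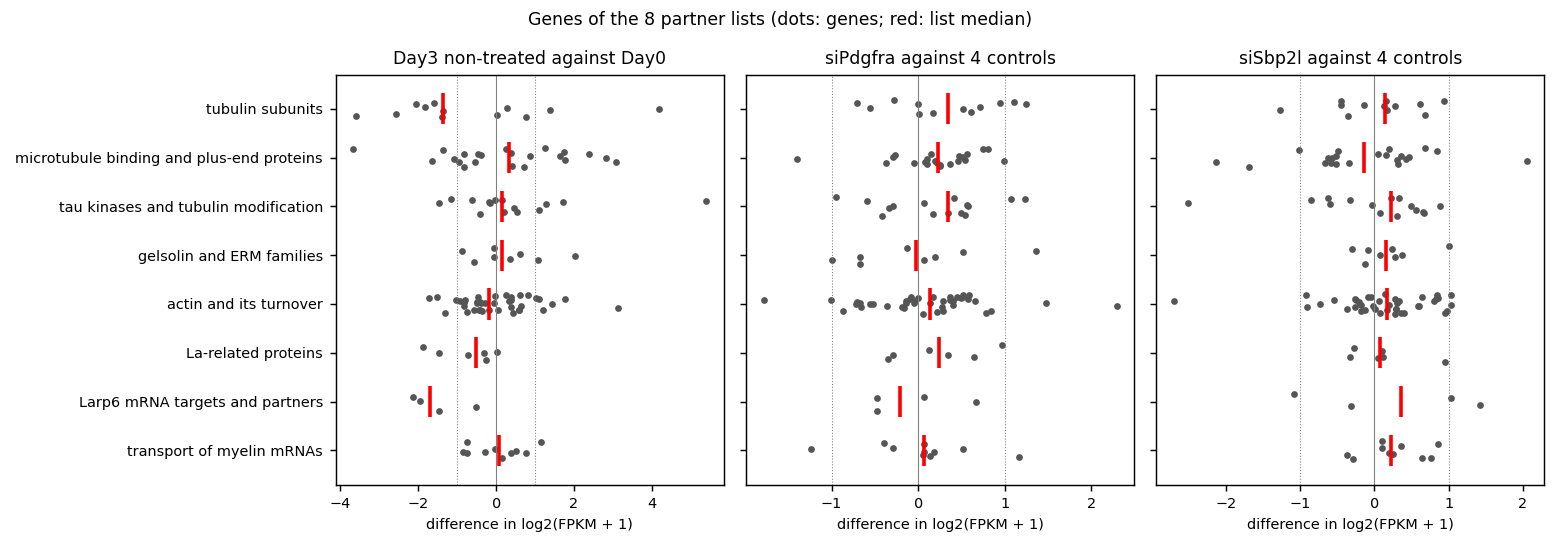
Differences in log2(FPKM + 1) of the tested genes in 8 lists of partners, 1 dot per gene with the list median in red and dotted lines at a 2-fold difference. Tubulin subunits have a median of -1.38 at Day3, Sirt2 is the rightmost dot of its list there (5.39), and the list medians in siPdgfra and siSbp2l lie between -0.20 and 0.36.

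The genes whose levels ran most like a member over the 7 group means were taken from 6421 tested genes that spanned at least 1 in log2(FPKM + 1). The measure is Pearson's r over 7 group means that share libraries and a strong Day0 to Day3 step, so it is a description. Since these means include both knockdowns, the highs and lows shared with Tppp, Ermn or Larp6 largely follow from the choice of genes. For Tppp these were Snx32 (0.997), Nfasc (0.997), Aldh1l1 (0.996), Plcl1 (0.996) and Abca2 (0.994). Nfasc, which encodes the adhesion protein neurofascin, was 12.1 FPKM at Day0, 394 FPKM in non-treated cells, 85.4 FPKM in siSbp2l and 138 FPKM in siPdgfra. Aldh1l1 is among the astrocyte markers. Every one of these 5 was lower in both knockdowns than in each control group.

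For Ermn the most like genes were Slc45a3 (0.984), St8sia5 (0.963), Cntn4 (0.960), Mcam (0.951) and Dock5 (0.936). These 5 peaked, as Ermn did, with NC siRNA #1. Slc45a3, a sugar transporter gene, was 4.69 FPKM there and 0.491 FPKM with NC siRNA #2. Mcam, an adhesion molecule gene, was 33.5 FPKM and 5.76 FPKM in these groups. For Larp6 they were Syngr1 (0.974), Trp53i11 (0.973), Hps5 (0.970), Slc20a2 (0.968) and Arfgef2 (0.968). Syngr1, which encodes a synaptic vesicle protein, was 13.1 FPKM at Day0, 12.6 FPKM in siSbp2l and 72.3 FPKM in siPdgfra. All 5 had their highest mean in siPdgfra.

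**Figure D5:**
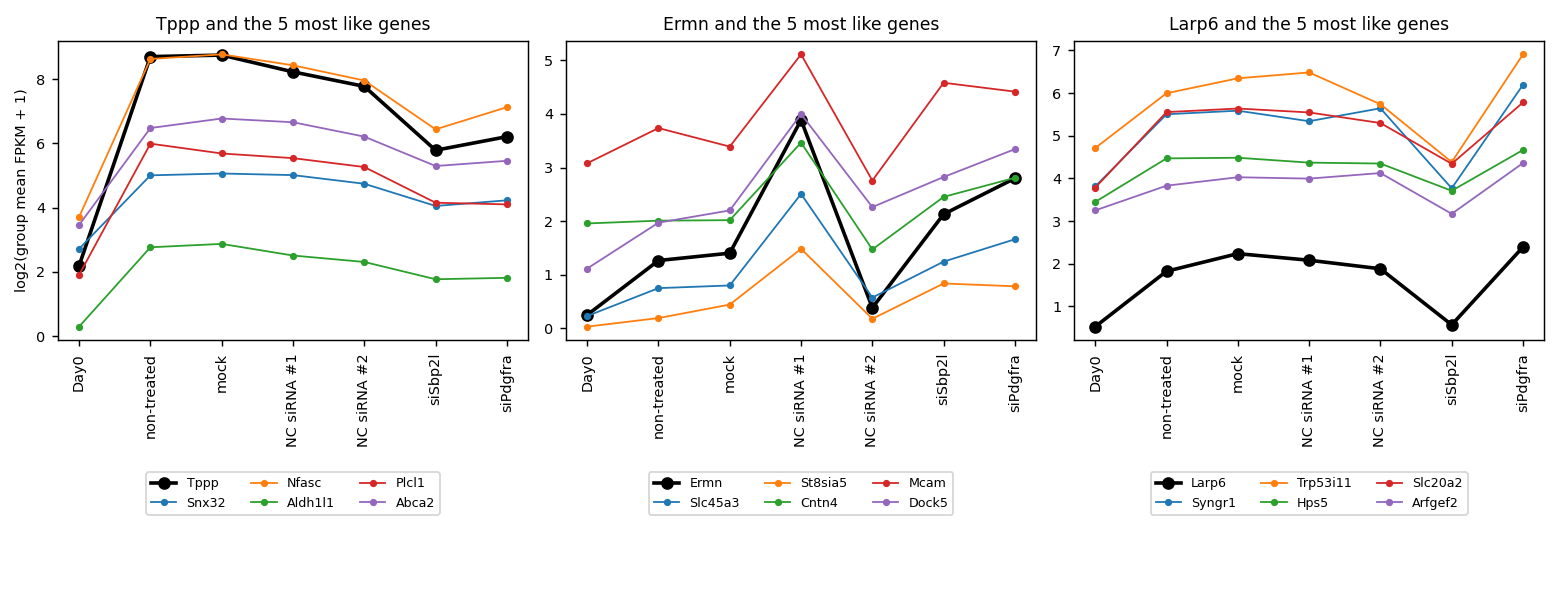
Group means as log2(FPKM + 1) over the 7 groups for Tppp, Ermn and Larp6 (black) and the 5 genes most like each (coloured lines). The Ermn panel peaks at NC siRNA #1, and in the Larp6 panel Syngr1 falls from 47.1 FPKM in mock cells to 12.6 FPKM in siSbp2l.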

How the data were processed

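The authors processed paired-end reads with OmicSoft ArrayStudio on the mm10 refGene gene model (aligner, version and counting settings not given in the sources used here) from TruSeq Stranded mRNA libraries, and deposited FPKM values for 23427 genes. The table is named for counts, but its values are FPKM with decimals, so no count test was used. A further table deposited by the authors holds DESeq2 fold changes and p-values of siSbp2l against each control, of which only gene positions and exon lengths were used. Groups and replicate numbers came from the labels. The non-treated columns are named by day only, and 1 misspelled column was matched to siSbp2l.

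A gene entered a fit if 2 or more of its libraries reached 1 FPKM. Two-sided tests used limma (version 3.58.1, R version 4.3.3) with intensity trend and robust moderation, and the response was log2(FPKM + 1). Of the 8 genes, 8 passed in the fit of 12 Day3 libraries (11650 genes) and in that of 14 libraries (11874 genes, used for contrasts with Day0). Residual degrees of freedom were 6 and 7. The error was pooled over all groups fitted, so a p-value also reflects groups outside its contrast, the uneven non-treated group among them. Scripts were tested on simulated data. The members and the lists of partners were chosen with earlier results of these data known. The named genes were the 8 members, the 5 genes most like Tppp, Ermn and Larp6 over group means, and up to 3 genes per list with the largest changes among those called in a tested comparison, with some others named after their values were seen.

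Depth was estimated from low values (at least 0.2 FPKM, up to 50 fragments), of which 88.7% to 92.7% came out within 0.1 of a whole fragment number in genes with 1 transcript. Replicates of each group differed by more than sampling noise in the estimated fragments (mean chi-square per gene 2.28 to 49.0), and each was kept. These values cannot tell separate cultures from separate library preparations. Alternatives were other pseudocounts, filters, scalings, moderation, libraries fitted, a replicate block, single controls and leaving out each library.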

Additional observations from a re-analysis of the deposited data

How the results depend on the processing

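With a pseudocount of 5, the genes called numbered 1915 for Day3 against Day0 (3157 with a pseudocount of 1), 382 for siPdgfra (931), 196 between the NC siRNAs (465), 33 for the NC siRNAs against mock and non-treated (149), 392 for siSbp2l (838) and 1527 for siSbp2l against Day0 (2708). With a pseudocount of 0.5, the NC siRNAs against mock and non-treated gave 244. The other 137 counts of genes called, and all 95 counts of members called, were within 1.5 times the main count. Ermn in siPdgfra turned to -1.083 with NC siRNA #1 as the only control. It fell under the fold threshold with a pseudocount of 5 (0.44) and upper-quartile scaling (0.99), as did Ermn (0.30) and Larp6 (0.46) at Day3 with a pseudocount of 5. Stmn1 in siPdgfra passed it against non-treated (1.11) or NC siRNA #2 (1.02) alone. The fit without the non-treated group, and the list counts with mock cells, were chosen after seeing the data. Each lone library was assumed to vary like the other groups.

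Same-numbered replicates deviated together in few groups (r from -0.38 to 0.47 over 21 pairs of groups, 4 above 0.1), so the numbers were not read as pairing. With the replicate block the genes called were 3157, 930, 466, 149, 838 and 2709 in the same order, and no member's call changed. Low depth in NC siRNA #2 replicate 2 limits Ermn, with 6 fragments estimated, and Tppp3, with 5.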
